A study of Drosophila melanogaster with 2 samples.

Results

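A set of 9 genes that were less abundant in ovaries of homozygous CG5508 mutants, outside the named chorion genes, is described here. The set holds Mur2B, Mur11Da, CG32642, CG12716, CG31926, CG31661, CG15570, CG13083 and Cad74A. They were chosen by name from the authors' lists of lower transcripts, on the values of the same comparison, so their falls are a description and not a test. With uniquely mapped reads they make up 9 of 23 lower features, and 8 of the 21 lower features when reads with up to 10 mappings were counted. The series compared RNA of *Drosophila melanogaster* ovaries in 2 libraries. One came from flies heterozygous for z3-5967, a mutant allele of CG5508, also called minotaur or mino, and served as control, and the other came from flies homozygous for it. The flies were 3 to 5 days old and kept at 25 °C, and every fly sampled thus carried at least 1 mutant copy. There was 1 library per genotype, so replicate error is unknown for every difference given. Only transcripts that the authors called are in the lists, so the total depth of each library is not known and a gene outside the lists cannot be called unchanged. The mutated gene was in 0 of the 4 lists used, so they give no level with which to check the genotypes.

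The fly eggshell is made at the end of egg development by the follicle cells, the somatic epithelium around each egg chamber, which secrete first the vitelline membrane and then the layers of the chorion. Mucins and mucin-related proteins are secreted or membrane proteins rich in serine, threonine and proline that carry many sugar chains. Cadherins hold neighbouring cells together through calcium-dependent binding, and Cad74A is known from fly work as a follicle cell cadherin of the later stages. CG31926 and CG31661 belong to the family of pepsin-type aspartic proteases, enzymes that cut proteins. For CG32642, CG12716, CG15570 and CG13083 no role is stated here.

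In homozygous ovaries the 9 genes fell by 2.11-fold at the least and 7.48-fold at the most, and the median fall was 4.19-fold. The median over all 23 lower features was 3.47-fold. Values are normalized read counts, the authors' read counts divided by a size factor per library, and the homozygous library was 1.34 times as deep by those factors. Parentheses hold exact 95% intervals computed from read numbers. Such an interval describes counting error in these libraries and says nothing of the variation between animals of a genotype. In whole ovaries, fewer cells of a type and less RNA per cell cannot be told apart.

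**Figure D1:**
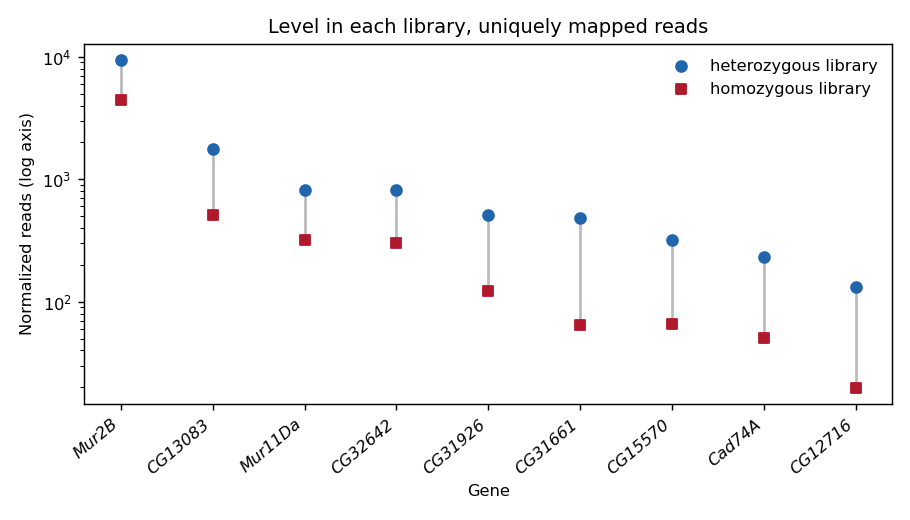
Normalized reads (log axis) of the 9 genes in the heterozygous library (blue circles) and the homozygous library (red squares), 1 library each, ordered by heterozygous level. Every gene is lower in the homozygous library, from 9350 against 4422 for Mur2B to 132 against 19.9 for CG12716.

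The mucin-related genes Mur2B and Mur11Da were among the more abundant of the 9. Mur2B (FBgn0025390) had 9350 normalized reads in the heterozygous and 4422 in the homozygous library, from 8085 and 5114 reads. That is a fall of 2.11-fold (2.04 to 2.19), the smallest of the 23 lower features and the most precisely counted of the 9. Mur2B alone held 64.8% of the heterozygous reads of the 9 genes. Mur11Da (FBgn0052644) had 818 heterozygous and 317 homozygous normalized reads, a fall of 2.58-fold (2.27 to 2.93). CG32642 (FBgn0052642), its neighbour on the X chromosome, had nearly as many normalized reads, 815 and 301, and fell 2.71-fold (2.38 to 3.09). The counting intervals of these neighbours overlap. CG12716 (FBgn0030439), the third gene of that locus, had the fewest normalized reads of the 9, with 132 and 19.9. It fell 6.63-fold (4.21 to 10.9), on 114 heterozygous and 23 homozygous reads, and its interval lies above those of CG32642 and Mur11Da.

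Both aspartic protease genes fell, and to different extents in these 2 libraries. CG31926 (FBgn0051926) had 515 normalized reads in the heterozygous and 123 in the homozygous library, a fall of 4.19-fold (3.46 to 5.10). CG31661 (FBgn0051661), the next gene on the same strand, started from a similar 479 and was left with 64.0. Its fall of 7.48-fold (5.83 to 9.72) was the largest of the 9, and its counting interval does not overlap that of CG31926.

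The other 3 genes differed in abundance. CG13083 (FBgn0032789) had 1766 heterozygous and 514 homozygous normalized reads and fell 3.43-fold (3.12 to 3.78). CG15570 (FBgn0029697) had 317 and 65.7 normalized reads, a fall of 4.82-fold (3.73 to 6.30). Cad74A (FBgn0036715), the cadherin, had 232 and 50.2 normalized reads, from 201 and 58 reads, and fell 4.63-fold (3.44 to 6.32). The counting intervals of CG13083, CG15570 and Cad74A overlap.

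A fall of at least 4-fold was seen in 5 of the 9 genes, CG31661, CG12716, CG15570, Cad74A and CG31926. The same threshold was passed by 43.5% of the 23 lower features, and since the lists chose the genes, nothing is read from the difference. The 5 genes had 132 to 515 heterozygous normalized reads, while the 4 that fell less had 815 to 9350. A list made by a test takes in a low transcript only when its fall is large, so this order of levels follows in part from the selection. Of the 36 pairs among the 9 genes, 13 had overlapping counting intervals.

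**Figure D2:**
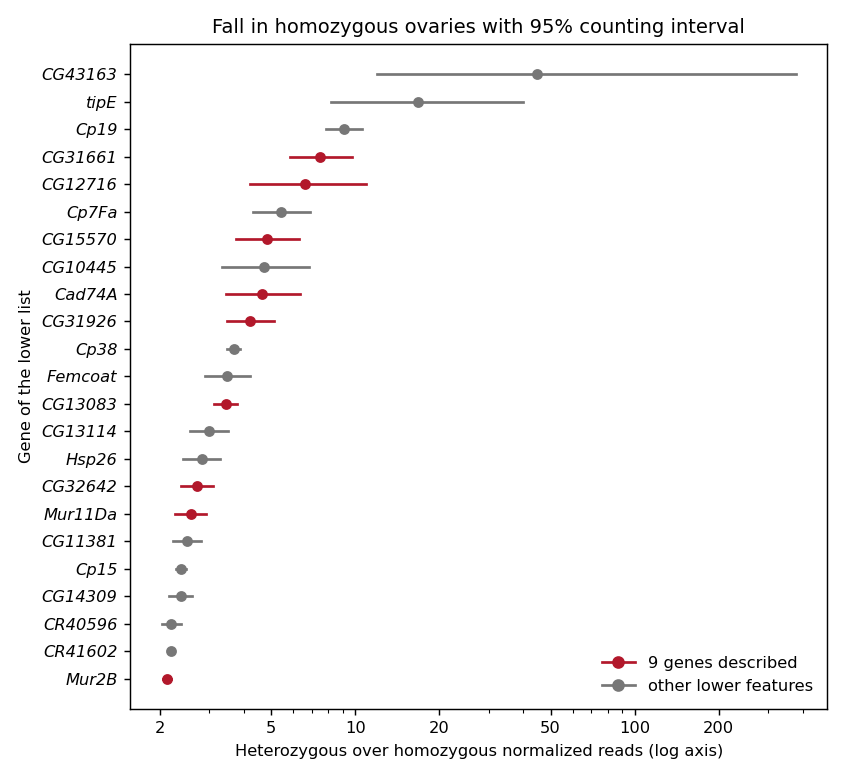
Ratio of heterozygous over homozygous normalized reads (log axis) for 23 lower features counted with unique mapping, 1 library per genotype, with exact 95% counting intervals as lines. The 9 genes described (red) lie between 2.11-fold and 7.48-fold, among the other 14 features (grey), which span 2.18-fold to 44.8-fold.

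By the authors' deposited table, the adjusted p of the 9 genes with uniquely mapped reads ran from 2.23e-06 for CG31661 to 0.0604 for Mur2B. It was under 0.01 for 4 of them, CG31661, CG13083, CG31926 and CG15570, and under 0.05 for 6, which adds Cad74A and CG32642. Mur11Da at 0.0557, CG12716 at 0.0572 and Mur2B lay closest to the end of the authors' deposited table, whose largest adjusted p was 0.0933. Genes beyond it were not analysed here. The p-values compare single libraries.

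Levels of different genes were compared per kilobase of the listed transcript, with lengths from the dm6 annotation. In the heterozygous library Mur2B had 1833 and CG13083 1542 normalized reads per kilobase, the highest of the 9. CG32642 followed with 619, Mur11Da with 406, CG31926 with 383 and CG31661 with 357. CG12716 with 97.0, CG15570 with 74.1 and Cad74A with 35.7 normalized reads per kilobase were the lowest. The 5 listed eggshell genes Cp15, Cp19, Cp38, Cp7Fa and Femcoat ranged from 408 to 12308 on this scale, so Mur2B, CG13083 and CG32642 lay within their range, Mur11Da just under its lower end and the others below it. Reads with several matches are left out of these levels, which lowers those of CG32642, Mur11Da and CG15570.

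Mur2B and Cad74A were listed with several transcripts. The 3 entries of Cad74A, 6493 to 6779 bases long, had identical values, so the counts do not tell its transcripts apart. The Mur2B entries differed by 18 heterozygous and 20 homozygous reads. These Mur2B transcripts share 4335 exon bases, besides which FBtr0070284 has 2076 of its own and FBtr0303587 has 765. Taken per kilobase of FBtr0070284, the Mur2B level was 1455 heterozygous and 687 homozygous normalized reads, and the fall was 2.12-fold.

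Reads that map to several places changed the level of 3 genes and hardly changed their ratio. Of the 8 genes listed under both read treatments, CG31661, CG12716, CG31926, CG13083 and Cad74A had nearly the same mean in both, 1.001 to 1.002 times as high with up to 10 mappings. For Mur11Da, the authors' deposited table gives a mean over both libraries of 567 normalized reads with unique mapping and 1864 with up to 10 mappings, which is 3.29 times as high. The mean of CG32642 went from 558 to 1570 in the authors' deposited table, 2.81 times as high. That of CG15570 went from 191 to 301, 1.57 times as high. None of the 12 other lower features in both lists passed 1.5 times (1.001 to 1.12), so these 3 genes had the largest shifts of the 20.

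The authors' deposited table with up to 10 mappings gives falls of 2.63-fold for Mur11Da, 2.80-fold for CG32642 and 4.62-fold for CG15570. Each lies inside the counting interval of the same gene with unique mapping. Reads of Mur11Da, CG32642 and CG15570 thus include some that match more than 1 place, be it within the same gene or elsewhere. Which places those are was not examined, and a read with several matches can be counted for more than 1 gene, so the values of these genes with up to 10 mappings are uncertain and not independent. The remaining falls with up to 10 mappings were 7.51-fold for CG31661, 6.66-fold for CG12716, 4.65-fold for Cad74A, 4.21-fold for CG31926 and 3.45-fold for CG13083. Of the 8 genes 5 fell at least 4-fold, against 52.4% of the 21 lower features of that list, from which nothing is read. Mur2B was not in the list with up to 10 mappings.

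**Figure D3:**
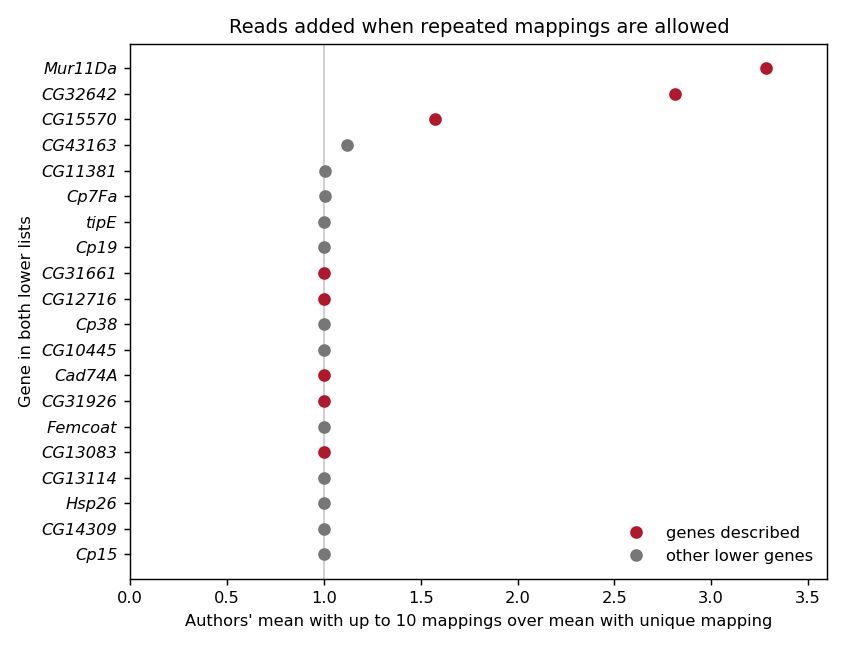
The authors' mean with up to 10 mappings per read divided by their mean with unique mapping, for the 20 genes in both lower lists. Mur11Da at 3.29, CG32642 at 2.81 and CG15570 at 1.57 stand to the right of 1, and the other genes described (red) lie at 1.001 to 1.002.

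Of the 9 genes, 5 lie on the X chromosome, 3 on 2L and 1 on 3L. The other 14 lower features include 5 on X, 1 on 2L and 5 on 3L. The X chromosome carries 15.7% of the annotated protein-coding genes. Positions are those of the dm6 annotation, matched by FlyBase identifier, while the files were made on dm3.

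CG32642, Mur11Da and CG12716 form 1 locus of 17012 bases on X. CG32642 runs from 12959220 to 12960790 on the plus strand and Mur11Da from 12967888 to 12970056, also on the plus strand, 7097 bases further with no annotated gene between them. CG12716 lies on the minus strand from 12974683 to 12976231, 4626 bases from Mur11Da. The only protein-coding gene between these is CG15721, which was in no list, and neither was a pair of antisense RNAs. The genes of this locus did not fall alike, since CG12716 fell more than its neighbours.

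CG31926 and CG31661 are direct neighbours on 2L. CG31926 runs from 1495460 to 1497071 and CG31661 from 1497243 to 1498583, on the plus strand with 171 bases between them, and each listed transcript is a single exon. They close a row of 4 genes on the same strand. The first of these, CG31928 and CG33128, are also among the pepsin-type aspartic protease genes counted below and were in no list. CG33128 ends 3 bases before CG31926. CG31661 shares 129 exon bases with CG18131 on the opposite strand, and no source used here says whether strand was used in the counting.

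**Figure D4:**
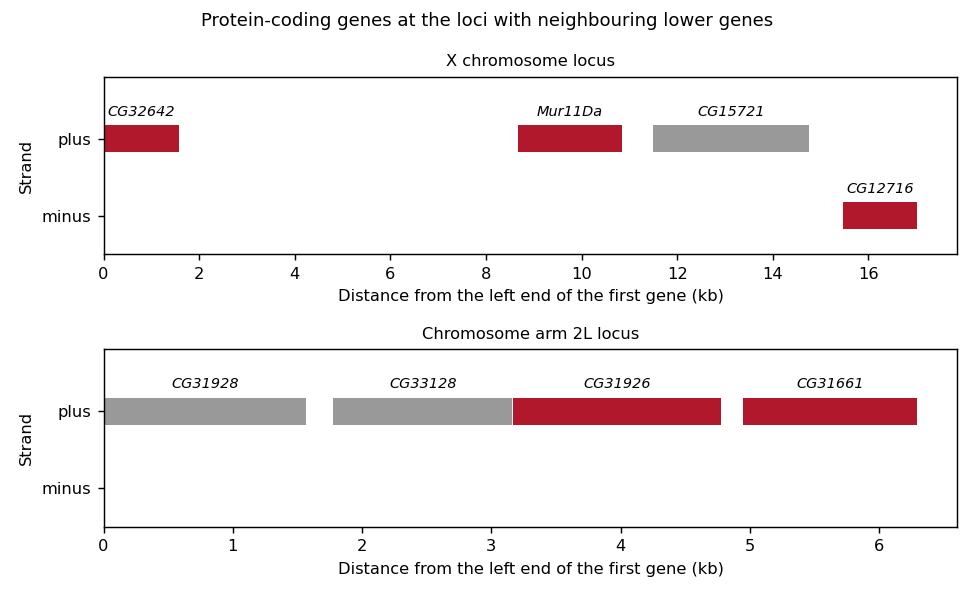
Protein-coding genes of the X locus (top) and the 2L locus (bottom), drawn to scale by strand against distance in kb from the left end of the first gene. The 3 lower genes on X and the adjacent pair on 2L are red, and genes in no list (CG15721, CG31928 and CG33128) are grey.

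In all, 5 of the 9 genes lie within 10 kb of another lower gene, and for these 5 that gene is one of the 9. Counted among the 23 lower features with unique mapping, 4 of the other 14 also have a lower gene within 10 kb. These are the chorion genes Cp15 with Cp19 and Cp7Fa with Cp38. Another of the 14, tipE on 3L, overlaps CG18675, which was lower with up to 10 mappings alone. CG15570, on X from 4218170 to 4223331, has CG15571, which was in no list, 775 bases away on one side. Its next protein-coding gene on the other side is the eggshell gene Femcoat, 18555 bases away on the opposite strand. Femcoat fell 3.47-fold (2.89 to 4.19), and its interval overlaps that of CG15570. For Mur2B, CG13083 and Cad74A no lower gene lies nearby. The nearest are 318120 bases away for Mur2B (CG11381), 9940065 for CG13083 (CG13114) and 7990325 for Cad74A (Hsp26).

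Mur2B spans 145235 bases on X, from 1523554 to 1668788 on the minus strand, and most of this is intron. Within the span lies br on the opposite strand, which encodes the Broad zinc finger transcription factors that pattern late follicle cells. The gene br shares 0 exon bases with the listed Mur2B transcripts and was in no list. Transposon insertions on the same strand, I{}18 and gtwin{}19, also lie within the span. I{}18 was in no list, and gtwin{}19, of the retrotransposon gtwin, was in no list with unique mapping. For gtwin{}19 with up to 10 mappings, the authors' deposited table gives a 16.7-fold rise and a mean of 154 normalized reads, and copies of gtwin share reads. Both insertions share 0 exon bases with the listed Mur2B transcripts. CG13083, on 2L from 19487490 to 19488691, shares 10 exon bases with CG10194 on the opposite strand. Cad74A, on 3L from 17367753 to 17379530, overlaps no other annotated gene.

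Related genes were counted over whole families. For comparison, 21 of 13986 annotated protein-coding genes, or 0.150%, were lower under each read treatment, though how many of them were tested is not known. The families were picked because they hold these genes, so nothing is read from their shares. Of 19 mucin and mucin-related genes, 2 were lower with unique mapping, Mur2B and Mur11Da. With up to 10 mappings 1 of the 19 was lower, and 1 was higher, Muc30E, for which the authors' deposited table gives a 13.7-fold rise and a mean of 128 normalized reads. Of 16 cadherin genes Cad74A was the 1 lower gene, and CadN2 was higher with up to 10 mappings, by 3.79-fold in the authors' deposited table. Neither Muc30E nor CadN2 was listed with unique mapping. Reads with several matches can be counted for more than 1 gene, so these rises are uncertain. Of 12 pepsin-type aspartic protease genes 2 were lower, CG31926 and CG31661, and 0 were higher in the authors' deposited table. The other 16 mucin, 14 cadherin and 10 protease genes were in no list.

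Of 24 eggshell genes 5 were lower, by 2.37-fold at the least, 3.67-fold at the median and 9.08-fold at the most, and 0 were higher in the authors' deposited table. None of the 9 genes is in this eggshell list, so the list does not show whether they are eggshell genes. The size of the fall was also compared with the 14 lower features outside the set alone, leaving aside that some of the 9 genes lie nearer to each other, as CG31661 does to CG12716 and CG31926 to Cad74A. Among those 14, the feature nearest to CG13083 was Femcoat, at 3.43-fold and 3.47-fold. For CG31661 it was Cp19, at 7.48-fold and 9.08-fold, and for CG12716 it was Cp7Fa, at 6.63-fold and 5.41-fold. Of the same 14, CG10445 at 4.71-fold was nearest to CG15570, Cad74A and CG31926, Hsp26 to CG32642, CG11381 to Mur11Da and CR41602 to Mur2B. This likeness is a single ratio over 2 libraries.

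None of the 10 follicle cell genes and none of the 10 germline genes counted was in any list in the authors' deposited table, so their levels are not known here. Some markers of other tissues were among the 57 higher features with unique mapping. The share of all tested genes that were higher is not known. Of 6 fat body genes 4 were higher with unique mapping, summing to 49.7 normalized reads in the heterozygous and 727 in the homozygous library. The other 2 were in no list. Of 12 muscle genes 5 were higher with unique mapping, summing to 2610 and 6935 normalized reads, and 4 with up to 10 mappings. The other 7 were in no list. Both sums cover the listed genes alone. The part of these tissues in the falls of the 9 genes was not tested.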

How the data were processed

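Per the labels' protocols, total RNA was primed with a pool from which primers matching ribosomal RNA were removed (not-so-random priming). Named without roles in the submitters' processing notes are the build dm3 and DESeq 1.8.2, bedtools, Bowtie 0.12.8 and TopHat 1.4.1. Of the 5 deposited lists 4 were used. Per the file headers, the signal columns are normalized read counts, the fold is the ratio heterozygous to homozygous, the log2 column is its log2, and the p-values are the authors' own. The 4 per-library columns with up to 10 mappings carry names that match neither sample (zucMUT and zucCD) and were not used. These lists were read as the same comparison because 16 of 26 entries shared by the lower lists differed in log2 fold by one constant, -0.00585. All 143 values of each library with unique mapping were whole multiples of 1.16 (heterozygous) or 0.865 (homozygous) within 0.001 read, which gave reads per transcript. Where the text gives reads, they are these.

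Ratios were given Clopper-Pearson 95% intervals (scipy 1.17.1, Python 3.11.15), checked on simulated Poisson counts. Where transcripts were listed apart, the one with the highest mean was used. Lengths and positions came from Ensembl release 115. The text names the 9 genes, the eggshell genes in the lists, the nearest lower genes by position and by ratio, and listed members of the gene families. The genes and families were chosen with earlier results of these data known. No p-values were computed. Promoter motifs and protein identity were not analysed here.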

Additional observations from a re-analysis of the deposited data

How the results depend on the processing

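No paired analysis was possible because there were only 2 libraries, 1 per genotype. At a threshold of 0.01 on the adjusted p of the authors' deposited table, 4 of the 9 genes stay listed with unique mapping, and at 0.05 there are 6. Both follow from stricter thresholds on a fixed list. Asking that the lower limit of the counting interval reach 4-fold leaves 2 genes in place of 5. The number past 4-fold was 4 with a pseudocount of 10, and 6 genes passed 3-fold. Members with another lower gene nearby numbered 5 within 10 kb, 4 within 5 kb and 6 within 50 kb. The count of 3 genes whose mean was over 1.5 times higher with up to 10 mappings was also 3 at 1.1 times and 2 at 2 times; these cutoffs were chosen after seeing the data. Other settings were pseudocounts of 1 and 10, averaging of transcripts, up to 10 mappings and scaling to the listed reads. Of 44 ratios, 43 stayed inside their counting interval and 0 reversed. The exception was Mur2B at 1.99-fold when scaled to the total of listed reads. These counts were largely fixed in advance and nothing is read from them. A pseudocount cannot reverse a ratio, and the falls with up to 10 mappings came from the lower list. Averaging altered Mur2B alone, and scaling multiplied every ratio by the same factor. Depth limits CG12716 most, with 23 homozygous reads. The alternatives for promoter motifs and protein identity were not run.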
